A study of Mus musculus with 2 samples.

Results

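Forkhead (Fox) genes encode transcription factors that share a winged-helix DNA-binding domain, and they are named by subfamily letter and number. Here the histone mark H3K27me3 was described over all of them in mouse primary chondrocytes. A Fox gene was counted as a member if its symbol, Fox with a letter from a to s and a number, was joined to at least 1 H3K27me3 peak within 5 kb of the gene, and such a gene is called marked below. Of the 44 protein-coding Fox genes in the RefSeq gene table, 22 were marked and 22 were not. The rule used the gene name and the presence of a peak, so the number of marked genes is itself what the rule counts, while the widths of the peaks and their place at the gene starts were not part of it.

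The cells were rib cartilage chondrocytes of newborn wild-type CD1 mice, released from the matrix with collagenase, strained and cultured overnight in medium with serum. No treatment and no genetic change was given for them. There was 1 library of DNA precipitated with an H3K27me3 antibody (ChIP) and 1 library of input DNA, with 17237574 and 17004082 tags left after filtering. Both were assigned by their titles, since the antibody entry of each names the other library's role, and without replicates no value has a spread between samples and no test between conditions was possible.

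H3K27me3 is placed by Polycomb repressive complex 2 (PRC2), whose subunit Eed is needed for its activity. The mark lies over genes that a cell type keeps silent, and genes for developmental transcription factors are among its best known targets. Fox proteins direct the formation of many organs: FoxA factors open chromatin in the endoderm, FoxC and FoxF factors act in mesenchyme, and FoxO factors carry insulin signals to the nucleus. The chondrocyte label was compared with 16 genes of the cartilage programme, such as Col2a1, Acan and Sox9, and 0 of the 16 had a peak within 5 kb, while 20.7% of all protein-coding genes had one. The nearest peak to Col2a1, the main cartilage collagen gene, was 159 kb away.

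The promoter windows of 5 Fox genes are shown because they stand for the 3 arrangements described below. Each runs from 250 bases before to 50 bases after the RefSeq gene start in build GRCm38.p6 and is written 5′ to 3′ on the strand of the gene, with every CpG dinucleotide in capitals. In Foxb2 and Foxd4 the whole window was under a peak. In Foxd3 and Foxf2 it was free of peaks but had a peak on either side, and Foxc1 had no peak near the gene.
Foxb2, chr19:16873781-16874080, minus strand: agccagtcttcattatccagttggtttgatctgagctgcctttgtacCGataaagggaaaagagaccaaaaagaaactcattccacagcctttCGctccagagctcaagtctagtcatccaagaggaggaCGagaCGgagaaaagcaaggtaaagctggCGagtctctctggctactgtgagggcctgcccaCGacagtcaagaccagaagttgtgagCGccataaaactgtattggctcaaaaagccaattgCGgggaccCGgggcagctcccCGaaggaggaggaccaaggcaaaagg
Foxd4, chr19:24900967-24901266, minus strand: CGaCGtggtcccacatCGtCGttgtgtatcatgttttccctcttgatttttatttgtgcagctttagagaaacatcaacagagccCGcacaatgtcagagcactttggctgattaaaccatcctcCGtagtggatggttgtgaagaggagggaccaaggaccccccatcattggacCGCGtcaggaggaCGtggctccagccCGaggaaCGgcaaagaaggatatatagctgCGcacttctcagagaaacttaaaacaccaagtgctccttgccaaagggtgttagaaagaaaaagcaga
Foxd3, chr4:99656049-99656348, plus strand: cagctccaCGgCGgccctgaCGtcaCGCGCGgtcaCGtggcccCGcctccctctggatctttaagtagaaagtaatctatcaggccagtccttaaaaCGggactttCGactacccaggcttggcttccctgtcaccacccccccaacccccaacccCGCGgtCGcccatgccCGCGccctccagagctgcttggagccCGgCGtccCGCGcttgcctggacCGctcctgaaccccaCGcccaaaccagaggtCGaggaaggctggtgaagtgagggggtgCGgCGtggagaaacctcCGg
Foxf2, chr13:31625566-31625865, plus strand: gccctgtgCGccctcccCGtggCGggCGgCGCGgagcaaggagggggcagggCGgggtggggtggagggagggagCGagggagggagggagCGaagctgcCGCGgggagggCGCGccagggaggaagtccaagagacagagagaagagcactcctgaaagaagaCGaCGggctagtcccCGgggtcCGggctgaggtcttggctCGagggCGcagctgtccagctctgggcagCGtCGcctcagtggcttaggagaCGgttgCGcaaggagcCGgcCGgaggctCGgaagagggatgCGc
Foxc1, chr13:31806396-31806695, plus strand: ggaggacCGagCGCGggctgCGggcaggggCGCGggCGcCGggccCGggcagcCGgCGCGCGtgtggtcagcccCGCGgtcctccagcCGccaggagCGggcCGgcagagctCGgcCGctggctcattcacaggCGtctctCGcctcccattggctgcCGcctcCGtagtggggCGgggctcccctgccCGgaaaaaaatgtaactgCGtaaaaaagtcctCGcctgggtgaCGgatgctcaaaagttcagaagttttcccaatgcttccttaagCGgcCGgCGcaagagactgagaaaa

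The 22 marked genes made up 50% of the Fox genes (95% Wilson interval 35.8 to 64.2%, which covers counting error only), compared with 20.7% of the 21896 protein-coding genes in the same table. A peak lay over the gene itself in 19 Fox genes, 43.2%, compared with 14.2% of all protein-coding genes. With peaks limited to those enriched 3.5-fold or more, this count was 12, beside 3.7% of all. The other 3 marked genes, Foxa2, Foxe3 and Foxr2, had peaks only in the flank of the deposited gene record. By RefSeq gene ends a peak also overlapped Foxe3, and the count was 20, beside 15.3% of all. A peak of at least 10 kb was joined to 12 Fox genes, 27.3%, while the share over all protein-coding genes was 2.63%. A peak whose mean q-value was 0.01 or lower was joined to 18 Fox genes, 40.9%, beside 5.9% over all. The q-value is the false discovery rate that the authors' peak caller gave, averaged over the peak on its −log10 scale.

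**Figure D1:**
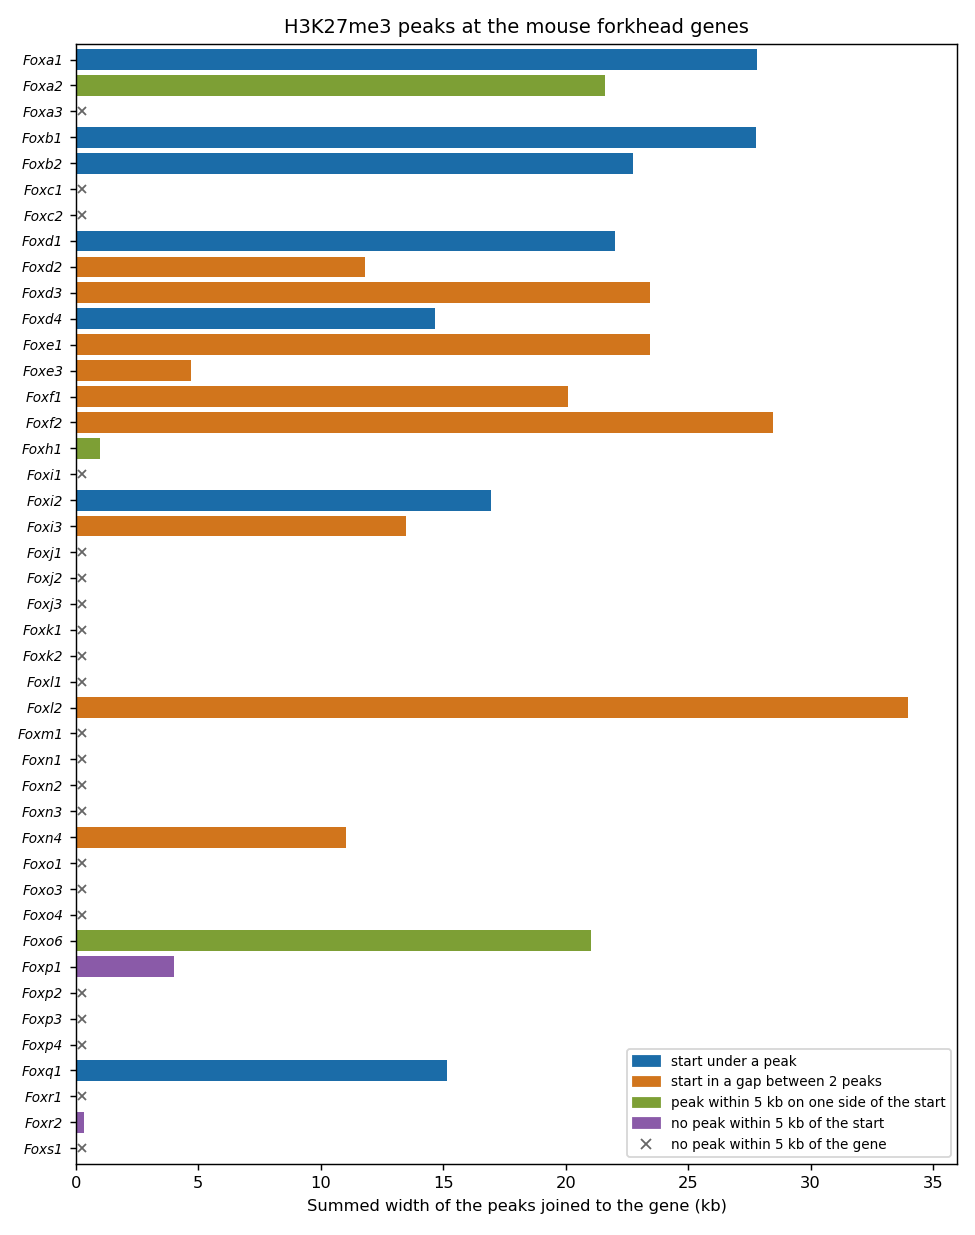
Summed width in kb of the peaks joined to each of 43 Fox genes (1 ChIP library called against 1 input library, so no error bars), with colour for the position of the gene start and a cross for genes without a peak within 5 kb. Foxl2 had the longest bar at 34.0 kb and Foxr2 the shortest at 0.316 kb.

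The marked Fox genes had long stretches of H3K27me3. The median summed width of the peaks at a marked Fox gene was 20.6 kb, and over all marked protein-coding genes it was 3.75 kb. The widest peak of each gene had a median width of 12.7 kb at Fox genes and 2.63 kb over all marked genes. Fold enrichment, the ratio of ChIP pileup to the local background, differed less, with medians of the highest value per gene of 3.57 and 3.32. The 22 genes were joined to 44 distinct peaks that covered 390.0 kb together. These peaks were 0.316 to 27.8 kb wide with a median of 6.85 kb, compared with 1.27 kb for all 19359 peaks, and 15 of them (34.1%) were at least 10 kb wide, compared with 3.46% of all peaks. Their fold enrichment ran from 2.76 to 3.9 and their pileup, the ChIP fragments counted at a position and averaged along the peak, from 9.97 to 14.24. A mean q-value of 0.01 or lower was found for 24 of the 44 peaks (54.5%, against 11.0% of all peaks), and 3 (6.82%, against 39.2%) had one above 0.05. Those 3 were the single peak at Foxh1, the outermost of 3 peaks at Foxe3 and the innermost of 3 peaks at Foxn4.

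Among the 19 subfamilies, 7 had every member marked, 5 had none and 7 were divided. The 7 with every member marked held 13 genes, and FoxB, FoxD, FoxE, FoxF, FoxH and FoxQ were among them. The 5 without a marked member, FoxC, FoxJ, FoxK, FoxM and FoxS, held 9 genes. In the divided subfamilies 9 of 22 genes were marked: 2 of 3 in FoxA and in FoxI, 1 of 2 in FoxL and in FoxR, and 1 of 4 in FoxN, FoxO and FoxP.

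In FoxA, whose members open chromatin in endoderm, Foxa1 lay entirely within 1 peak of 27.8 kb with a fold enrichment of 3.60, the widest peak at any Fox gene. Foxa2, which is needed for the node and the floor plate, had a peak of 20.7 kb with a fold enrichment of 3.78, but all of it lay past the 3′ end of the gene. Within 30 kb of the Foxa2 start, 23.2 kb was under peaks on the downstream side and 0.607 kb on the upstream side. Foxa3, the third member, had its nearest peak 36963 bp away.

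Both FoxB genes were covered whole, Foxb1 by a peak of 27.8 kb and Foxb2 by one of 22.7 kb, with fold enrichments of 3.56 and 3.58. Foxb1 acts in the developing diencephalon. The peak around Foxb1 belonged to a run of peaks with gaps of at most 5 kb that was 81.0 kb long, the longest of such runs at the Fox genes.

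All 4 FoxD genes were marked. Foxd1, a gene of the kidney stroma, had peaks of 7.21 and 14.8 kb, and Foxd3, which marks premigratory neural crest, had peaks of 10.8 and 12.6 kb with fold enrichments of 3.70 and 3.54. Foxd2 had peaks of 9.43 and 2.38 kb. Foxd4 was covered by 1 peak of 14.6 kb whose pileup of 14.24 was the highest at the Fox genes. The summed widths were thus 22.0 kb at Foxd1, 11.8 kb at Foxd2, 23.4 kb at Foxd3 and 14.6 kb at Foxd4.

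The other subfamilies with every member marked spanned a wide range. Foxe1, a thyroid factor, had peaks of 12.7 and 10.8 kb. Foxe3, a lens factor, had peaks of 2362, 1960 and 390 bp, 4.71 kb in all. None of them lay on its deposited gene record, but the first overlapped the longer RefSeq gene. Foxf1 and Foxf2, which act in the mesenchyme of gut and lung, had 20.1 and 28.5 kb. Foxq1 had peaks of 6.84 and 8.30 kb with fold enrichments of 3.69 and 3.84. Foxh1, which binds DNA together with Smad proteins in Nodal signalling, had a single peak of 0.993 kb with a fold enrichment of 2.99 and a mean q-value of 0.0892, and this peak also overlapped the end of the Kifc2 record.

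In the divided subfamilies the marked members also ranged from broad to narrow. Foxl2, the factor of ovarian granulosa cells, had peaks of 12.1 and 21.9 kb, and its sum of 34.0 kb was the highest of all Fox genes. Foxi3, which acts in ectoderm of teeth and ear, had a peak of 9.34 kb with a fold enrichment of 3.90 and a mean q-value of 0.00142, the highest enrichment and lowest q-value at the Fox genes. Foxi2 had 3 peaks of 16.9 kb in sum with mean q-values from 0.0208 to 0.0441. Foxn4, a factor of retinal progenitors, had 11.0 kb in 3 peaks. Foxo6, the only marked FoxO gene, had 5 peaks of 1.32 to 7.91 kb that added up to 21.1 kb and covered 66.2% of its record. Foxp1 had peaks of 2.17 and 1.82 kb inside a gene of 597 kb, 5316 bp or more from its start, that covered 0.667% of the record. Foxr2, on the X chromosome, had 1 peak of 0.316 kb that began 787 bp past its 3′ end.

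The 22 unmarked genes were not just outside the 5 kb limit. The distance from the gene to the nearest peak was 14.1 kb for Foxn1, the thymic epithelial factor, and 1064 kb for Foxp2, with a median of 91.9 kb. Only Foxn1 had a peak within 20 kb, 9 genes had one within 50 kb, and 10 genes were more than 100 kb from any peak. Foxo1 and Foxo3, the broadly expressed effectors of insulin signalling, were 676 and 274 kb from a peak, and Foxo4 122 kb. Foxm1, a factor of dividing cells, was at 202 kb, and Foxk1 and Foxk2 were at 63.6 kb and 99973 bp. Foxj1, the factor of motile cilia, was at 45.4 kb, and Foxj2 and Foxj3 were at 23791 and 23685 bp. The marked Fox genes were short, with a median length of 3.51 kb compared with 20.4 kb for the unmarked ones. Over all protein-coding genes the medians were 22.8 kb for marked and 16.1 kb for unmarked genes. Of the 26 Fox genes under 10 kb, 18 were marked (69.2%, against 17.0% of all protein-coding genes under 10 kb). Of the 18 longer Fox genes, 4 were marked, Foxn4, Foxo6, Foxp1 and Foxr2 (22.2%, against 22.8% of all longer genes).

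The 22 marked genes were then divided by the position of the gene start, the 5′ end of the deposited gene record. The start was under a peak in 8 Fox genes (18.2% of 44, against 4.45% of all protein-coding genes). It lay in a gap between 2 peaks, each within 5 kb of the start, in 9 Fox genes (20.5%, interval 11.2 to 34.5%, against 3.63% of all protein-coding genes). In 3 genes, Foxa2, Foxh1 and Foxo6, there was a peak within 5 kb of the start on the downstream side alone, and in Foxp1 and Foxr2 there was none within 5 kb of the start.

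**Figure D2:**
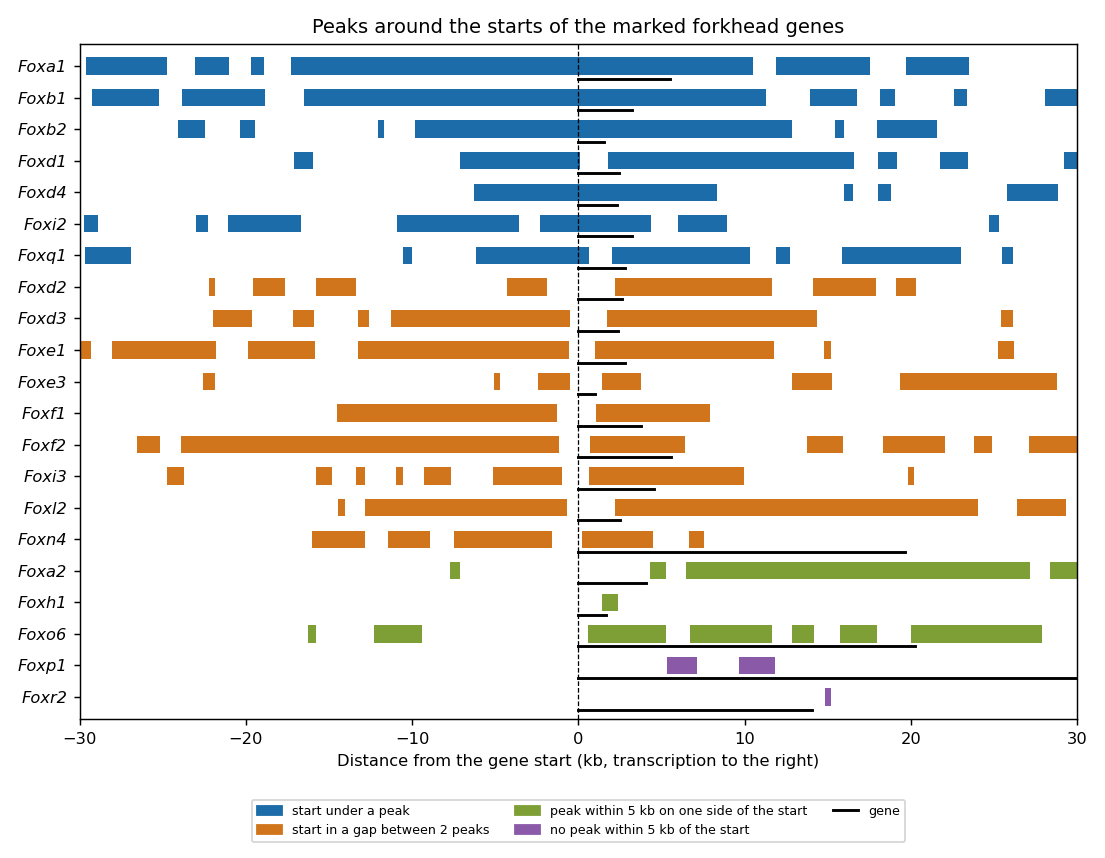
Peaks (bars) within 30 kb of the starts of 21 marked Fox genes, each turned so that transcription runs to the right, with the gene as a black line and colour for the position of the start. The dashed line at the start falls in a gap in 9 genes, from Foxd2 to Foxn4, and the gaps were 1576 to 4125 bp long.

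The genes with the start under a peak had 2 forms. Foxa1, Foxb1, Foxb2, Foxd4 and Foxi2 were covered over 100% of the gene record. In Foxd1 and Foxq1 the upstream peak ended 105 and 664 bp past the start, and a gap of 1689 and 1335 bp followed within the gene before the next peak. These genes therefore also had an uncovered stretch close to the start, next to peaks on both sides of it.

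The 9 genes with the start in a gap were Foxd2, Foxd3, Foxe1, Foxe3, Foxf1, Foxf2, Foxi3, Foxl2 and Foxn4. Their gaps had a median length of 1873 bp. The shortest was at Foxe1 with 1576 bp, with peaks 578 bp before and 999 bp after the start, and the longest at Foxd2 with 4125 bp. At Foxd3 the flanking peaks lay 489 bp before and 1744 bp after the start, and at Foxf2 they lay 1158 bp before and 695 bp after. The 18 peaks that bordered these gaps were 1.96 to 22.7 kb wide with a median of 9.39 kb, and 8 of them were at least 10 kb wide. At Foxd3, Foxe1, Foxf1, Foxf2 and Foxl2 a peak of at least 10 kb bordered the gap, and at Foxd2, Foxe3, Foxi3 and Foxn4 none did. In Foxo6 the start also lay between peaks, but its gap was 9979 bp and the upstream peak was 9417 bp away, beyond the 5 kb limit. With peaks limited to those enriched 3.5-fold or more, the start was in a gap in 4 Fox genes and under a peak in 5, compared with 0.269 and 1.43% of all protein-coding genes.

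Since a gap needs a peak on each side, the count was also made within the genes that had broad peaks. Of the 12 Fox genes with a peak of at least 10 kb, 5 had the start in a gap, 6 under a peak, and Foxa2 had neither. Over the 575 protein-coding genes with such a peak, the start was in a gap in 19.1% and under a peak in 59.1%. With 12 genes the shares of the Fox genes are imprecise.

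The promoter windows were compared between these arrangements for the 28 Fox genes that had an entry in the RefSeq promoter table, 15 of them marked. The windows of the 5 genes with the start under a peak, Foxa1, Foxb2, Foxd1, Foxd4 and Foxi2, held 5 to 26 CpG dinucleotides with a median of 12. The windows of the 7 genes with the start in a gap held 10 to 31 with a median of 26, and the 13 unmarked genes held 6 to 59 with a median of 31. The G + C content had medians of 57.7, 67.7 and 67.3%. In the sequences shown above, this is the difference between Foxd4 with 12 CpG and 49.0% G + C, Foxf2 with 27 CpG and 71.3%, and Foxc1 with 32 CpG and 67.3%. The window lay 113593 bp from the 5′ end of the gene at Foxn3 and 1728 bp at Foxp1, and within 1 kb of the gene start used for the other genes. The ranges of the 3 groups overlapped, as Foxa1 had 26 CpG under a peak and Foxe3 had 10 in a gap. The difference of the medians, start under a peak minus unmarked, was -19.0 CpG. With peaks limited to those enriched 3.5-fold or more it was -4.0 CpG, but against a different reference. That reference also held the marked genes Foxd1, Foxi2, Foxp1 and Foxr2, which had no such peak. Their windows held 15, 5, 13 and 3 CpG.

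Over all protein-coding genes in the promoter table the medians were 13 CpG for 730 windows with the start under a peak, 19 for 602 windows with the start in a gap and 13 for 13984 windows of genes without a peak. The median of the unmarked Fox genes thus stood above that of the unmarked genes as a whole, with Foxk2 at 59 CpG and Foxj3 at 42. Foxi1, Foxn1, Foxn3 and Foxp3, with 6 to 8 CpG, lay below the median of 13. The windows were also searched on both strands for TATAAA and for TGTTTAC, a core of the forkhead binding site. TATAAA was found at Foxa3 and Foxp3, 7.14% of the 28 windows, while 13.3% of all 17491 windows held it. TGTTTAC was found at Foxa1 alone, 3.57% of the windows beside 2.94% of all. These are matches of letters and not sites of binding.

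**Figure D3:**
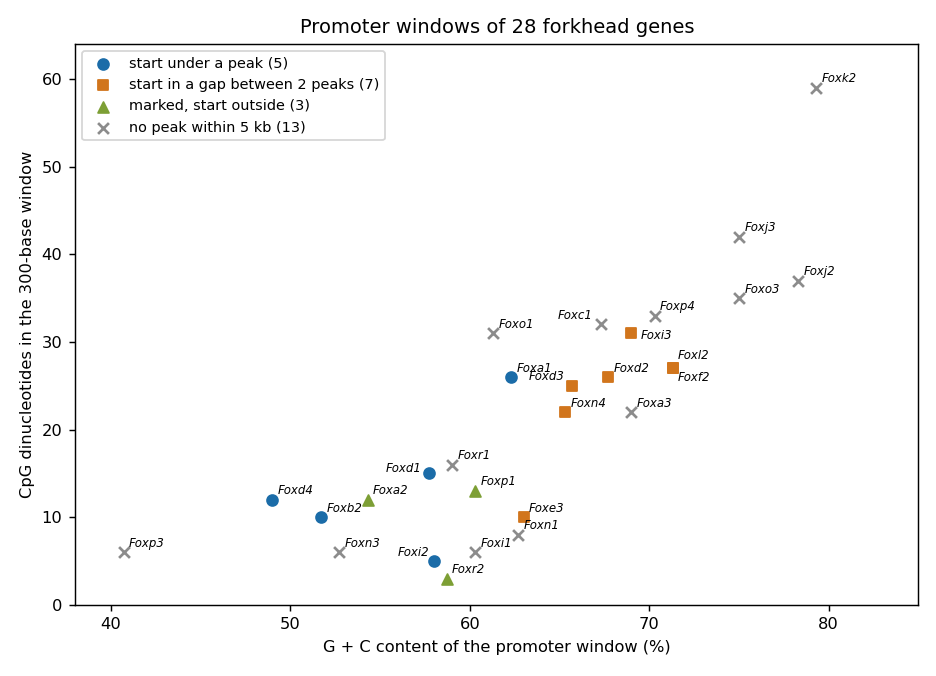
CpG dinucleotides in the 300-base promoter window against its G + C content (%) for 28 Fox genes, 1 point per gene, with shape and colour for the position of the start. Most windows with the start in a gap (squares) lie above 20 CpG, with Foxe3 at 10, and most with the start under a peak (circles) lie at 15 or below, with Foxa1 at 26.

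Fox genes that are neighbours on the chromosome differed within 2 of 3 linked loci. On chromosome 13, Foxq1, Foxf2 and Foxc1 follow each other over 252 kb (GRCm38.p6, chr13:31558170-31810635). With 50 kb added on each side, 20 peaks covered 81.4 kb or 23.1% of this region, and 38.5 kb was covered by peaks enriched 3.5-fold or more and 37.9 kb by those with a mean q-value of 0.01 or lower. Within 25 kb of the gene, 24.4 kb was under peaks at Foxq1, 38.9 kb at Foxf2 and 0 kb at Foxc1. Peaks continued past Foxf2 up to position 31673787, which is 133 kb short of Foxc1, and the next peak after the locus began 1044 kb beyond the end of Foxc1. Foxc1, needed for the formation of skull and eye, had no peak on either side over a long stretch. Foxq1 and Foxf2 lay in separate runs of peaks with gaps of at most 5 kb, which were 46.0 and 33.0 kb long.

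**Figure D4:**
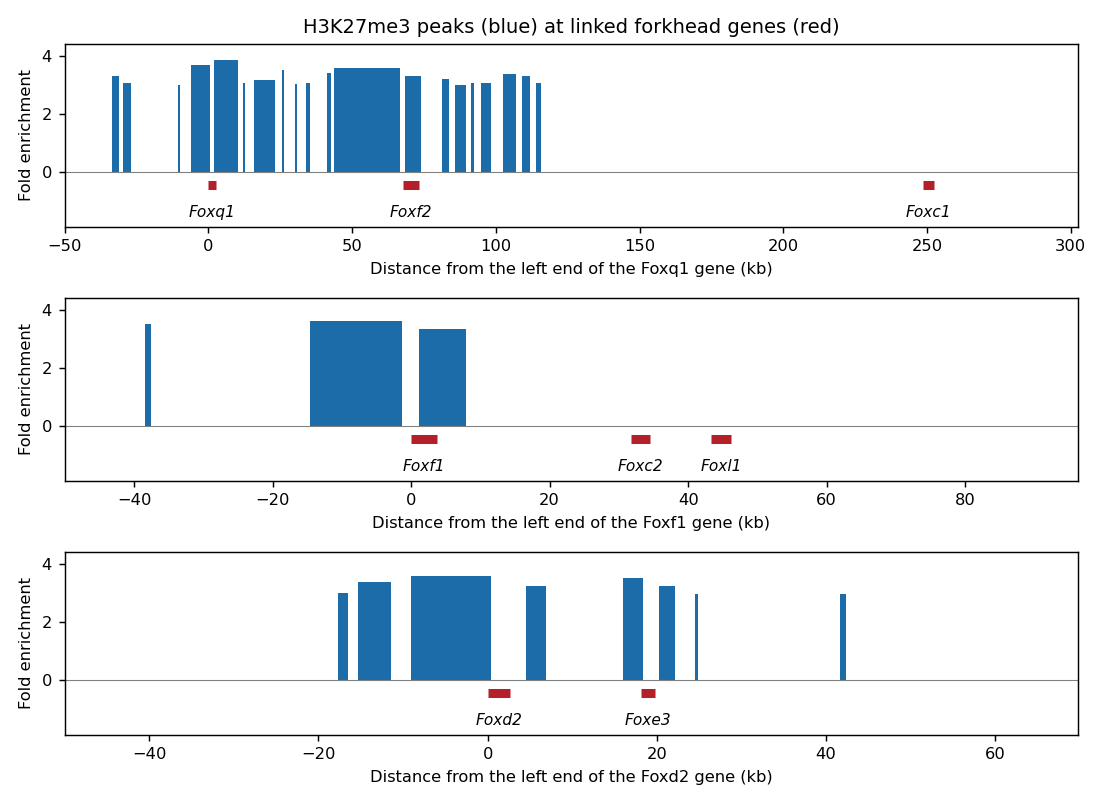
Peaks (bars, height is fold enrichment, width is to scale) and Fox genes (red) at 3 linked loci, in kb from the left end of the first gene, with 50 kb on each side. Peaks surround Foxq1, Foxf2, Foxf1, Foxd2 and Foxe3, whereas Foxc1, Foxc2 and Foxl1 have none within 5 kb.

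On chromosome 8, Foxf1, Foxc2 and Foxl1 lie within 46.3 kb (chr8:121084386-121130644) and the FoxF gene was again marked and the FoxC gene was not. Over the locus and 50 kb to each side, 3 peaks covered 21.0 kb or 14.4%, and 13.2 kb was covered by peaks with a mean q-value of 0.01 or lower. The peaks next to Foxf1 were 13.2 kb wide upstream, with a fold enrichment of 3.59, and 6.86 kb wide from within the gene, with one of 3.32. The latter ended at position 121092328, which is 23.8 kb before Foxc2 and 35.4 kb before Foxl1, and the next peak after the locus began 548 kb beyond it. Within 25 kb of the gene, peaks covered 20.1 kb at Foxf1, 1.16 kb at Foxc2 and 0 kb at Foxl1. Foxc2 acts in mesenchyme, lymphatic vessels and the axial skeleton. The long non-coding RNA gene Fendrr, which begins beside Foxf1 on the other strand, had the start of its deposited record 38 bp inside the edge of the upstream peak. The enzyme gene Mthfsd, between Foxf1 and Foxc2, was joined to the second peak, whose edge was 2685 bp from the 3′ end of its deposited record.

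On chromosome 4, Foxd2 and Foxe3 lie 15.5 kb apart (chr4:114906280-114926067) and both were marked. Within 50 kb of the pair, 8 peaks covered 22.3 kb or 18.6%, and the gene starts of both lay in gaps of 4125 and 1873 bp. Between them lies the non-coding Foxd2os, which was joined to 4 peaks, 16.1 kb in sum, that are also those of the Fox genes. Foxl2os shared both peaks with Foxl2, and Foxo6os was joined to 3 peaks of 8.06 kb in sum. The reads do not show strand, so a peak shared by a gene and an antisense transcript cannot be given to either of them.

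For comparison, the same counts were made for other families of developmental transcription factors. All 9 Pax genes were marked and all 9 had the start under a peak, with 0 in a gap. Of 19 Sox genes, 10 were marked, 6 had the start under a peak and 2 in a gap, and of 13 Tbx genes, 10 were marked with 5 and 3. As a share of the marked genes, the start lay in a gap in 40.9% of Fox, 0% of Pax, 20% of Sox and 30% of Tbx genes, and in 17.5% of all marked protein-coding genes. The median summed width at the marked genes was 41.2 kb for Pax and 18.2 kb for both Sox and Tbx, beside 20.6 kb for Fox. With 9 to 13 genes in Pax and Tbx the intervals of these shares are wide, and the difference between families was not tested.

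**Figure D5:**
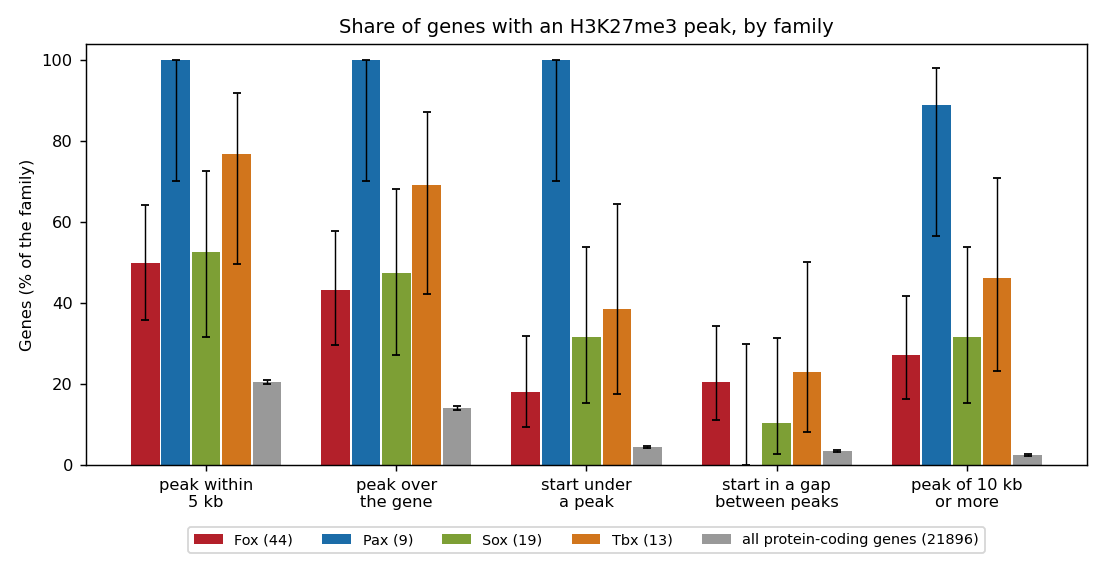
Share of genes (%) with each arrangement of H3K27me3 peaks in the Fox, Pax, Sox and Tbx families and in all protein-coding genes, with 95% Wilson intervals as error bars. 0% of Pax genes had the start in a gap and 100% had it under a peak, while in Fox the shares were 20.5 and 18.2%.

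Pathways that act with Fox genes were also examined. Hedgehog signalling, which controls several Fox genes in mesenchyme and neural tube, had 6 of 16 genes marked, 37.5% beside the 20.7% of all genes. With peaks limited to mean q-values of 0.05 or lower it was 4 of 16, 25% beside 16.4%, without Dhh and Ptch1. Among the ligands, Ihh, which is made by prehypertrophic chondrocytes, had 3 peaks of 29.6 kb in sum with its start in a gap, Shh had 17.8 kb with its start under a peak, and Dhh had 0.343 kb with a mean q-value of 0.0861. The receptor gene Ptch1 had 1 peak of 3.19 kb with a mean q-value of 0.0714, the ligand-binding antagonist Hhip had 11.8 kb, and the transcription factor Gli1 had 8.59 kb. The receptor component Smo and the factors Gli2 and Gli3 had no peak within 5 kb.

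Of 25 genes of the insulin and FoxO pathway, 1 was marked (4.0%, against 20.7% of all genes). This was Igf2, an insulin-like growth factor, with 2 peaks of 4.27 kb in sum. Receptors, kinases and FoxO target genes of that list, such as Insr, Akt1 and Cdkn1b, had none within 5 kb, like Foxo1, Foxo3 and Foxo4 themselves.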

How the data were processed

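Primary mouse chondrocytes were profiled by ChIP-seq with 1 ChIP and 1 input library. Per the labels, reads were handled with CASAVA 1.8.4, Bowtie2 and MACS2 on build mm10. Per the file headers, broad peaks were called with MACS 2.1.0.20140616, ChIP against input, with an effective genome size of 1.87e+09, a fragment length of 294 bp, tags of 100 bp, a q-value cutoff of 0.05 and 1 tag kept per position. For each of 19359 peaks the authors deposited the pileup signal, the fold enrichment ratio over local background and the −log10 of the p-value and q-value, each averaged over the peak. A second deposited table joins peaks to Ensembl gene records within 5 kb. Only regions past the caller's threshold are listed, so a gene without a peak is not shown to lack the mark, and broad calling joins or splits neighbouring enrichment.

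Fox genes were matched by symbol and counted against 21896 protein-coding genes of the RefSeq table (GRCm38.p6), from which printed gene coordinates come. The lower coordinate of the deposited gene record, on either strand, was 1 bp higher than in that table in 1791 of 4926 records compared. Distances from a start to a peak use the deposited records. Each peak was counted once per gene. With 1 library per group no test was made and no p-value is given. Python 3.11.15, pandas 2.3.3 and numpy 2.4.6 were used, and the overlap and gap calls were tested on simulated peaks. Any Fox gene could be named, and other genes if they share a peak or linked locus with one or belong to the lists compared. The members and lists were chosen with earlier results of these data known. Alternatives tried were stricter q-values, fold enrichment or width of peaks, other gene ends, distances and region limits. The values of 1 gene, which stays in the counts, are not reported here.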

Additional observations from a re-analysis of the deposited data

How the results depend on the processing

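There were 49 alternatives over 9 results. A count of genes was taken as moved past 1.5 times its value, and a width, covered length or CpG difference, which had no replicate spread, at any change. By these limits 22 moved and 27 did not. Those that moved include the observed over expected CpG ratio, which could not equal a CpG count because its unit differs. The number of marked Fox genes ran from 17 with a fold enrichment of at least 3.5, beside 5.35% of all protein-coding genes, to 23 with a reach of 20 kb, beside 32.9%. Foxh1 was lost when the mean q-value had to be 0.05 or lower, and Foxi2, Foxp1 and Foxr2 in addition at 0.01. With peaks of a fold enrichment of at least 3.5, Foxd1 was lost as well, 12 Fox genes had a peak over the gene (3.7% of all genes) and 5 had the start under a peak (1.43%), the latter also 5 with a q-value of at most 0.01 (1.63%). Starts in a gap, whose alternatives were chosen after seeing the data, fell from 9 to 4 genes under either limit, as the share over all protein-coding genes fell from 3.63% to 0.343% by q-value and 0.269% by fold enrichment. The median summed width was 21.1 kb at a q-value of at most 0.05, 17.4 kb at 0.01, 19.7 kb at a fold enrichment of at least 3.5, 20.9 kb with peaks of at least 1 kb, and 27.4 kb with peaks joined within 5 kb. A limit of 20 kb in place of 10 kb for broad peaks left 6 genes, as the share over all genes fell from 2.63% to 0.808%. Around Foxq1, Foxf2 and Foxc1 the covered length was 66.9 kb at a q-value of at most 0.05, 37.9 kb at 0.01, 38.5 kb by fold enrichment and 82.8 kb with 100 kb added on each side. Around Foxf1, Foxc2 and Foxl1 it was 13.2 kb at 0.01, 14.2 kb by fold enrichment and 31.0 kb with 100 kb. The difference in median CpG count between windows under a peak and those of unmarked genes was -19.0. With windows within 1 kb of the gene start, an alternative chosen after seeing the data, it was -19.5. As an observed over expected ratio, which is in another unit, it was -0.18. It was -7.0 at a q-value of at most 0.01 and -4.0 by fold enrichment. There the reference also held marked genes without a passing peak, namely Foxi2, Foxp1 and Foxr2, and by fold enrichment also Foxd1. Beyond this change of the reference, the cause of the changes listed here was not tested. No paired analysis was possible because this series holds only 1 library of each kind. The lowest pileup of any peak was 9.86 and the lowest fold enrichment 1.42, and how the calls depend on depth was not tested.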
